A study of Mus musculus with 4 samples.

Results

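The genes described here encode the oocyte linker histone H1foo, other linker histones, core histone variants, and the histone chaperones Npm2 and Nasp. The 10 genes were taken by name: *H1foo*, *H1f0*, *H1fx*, *H2afz*, *H2afx*, *H2afy*, *H3f3a*, *H3f3b*, *Npm2* and *Nasp*. All 10 were found among the 21957 genes of the expression table. RNA-seq was performed on mouse oocytes of the hybrid strain B6D2F1 (C57BL/6 x DBA), from females of 6 to 8 weeks, primed with PMSG and freed of cumulus cells. GV oocytes, arrested with an intact germinal vesicle, were collected before culture, and the other groups were cultured in M16 medium for 12 h. The MII group received no drug and was kept only if a polar body had been extruded, a selection that the methods do not give for the treated groups. TubA-10 and TubA-20 oocytes received tubastatin A, an inhibitor made against the deacetylase HDAC6, at 10 and 20 μM by the sample titles and the methods. The treatment field of the same samples disagrees, with 20 μM under TubA-10 and 11 μM under TubA-20, and the titles are followed here. Both controls are labelled as non-treated, and no vehicle is named for them. Each group was 1 library, made from pooled oocytes (100 per pool by the methods) after oligo(dT) selection, so a difference could not be set against a spread between replicates and has no p-value. The pool is taken from the methods, while the title of the series and the discussion of the study speak of single cells or oocytes.

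Linker histones sit on the DNA that enters and leaves the nucleosome. The oocyte has a form of its own, H1foo, which replaces the somatic forms in the growing oocyte and stays until the embryo switches back to them. Core histone variants such as H3.3, H2A.Z and macroH2A are made outside S phase, from mRNAs with a poly(A) tail, unlike the replication-dependent histones, and the mRNA of H2A.X can be made in either form. A full-grown oocyte transcribes little and lives on stored mRNA, and maturation brings decay of this store as well as lengthening or shortening of poly(A) tails. Oligo(dT) selection depends on that tail, so the amount of an mRNA and the length of its tail cannot be told apart here.

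Levels are FPKM, fragments scaled to the length of the transcript and to the mapped fragments of the library. Genes can thus be compared within a library, but each value is relative to the rest of its library rather than an amount per oocyte. In a pool, fewer oocytes with a transcript and less of it in each cannot be told apart. The FPKM of all genes summed to between 568331 (MII) and 627340 (TubA-20), and steps between low values put the depth of MII and TubA-10 at 1.61 and 1.71 times that of GV and that of TubA-20 near it (0.901). These are indirect estimates, and which of GV and TubA-20 was deeper is uncertain. All 11 oocyte markers were at 1 FPKM or more in every library, with sums of 17302 to 23181 FPKM. The 14 cumulus and granulosa markers summed to between 22.7 and 26.9 FPKM, with 3 of them at 1 FPKM or more in GV, MII and TubA-10 and 5 in TubA-20. The highest was *Nr5a2* (9.23 to 11.5 FPKM) in the first 3 libraries and *Cyp19a1* (10.3) in TubA-20, while *Foxl2* was listed at 0 everywhere. The part of such cells in the results was not tested. The 7 blood markers summed to between 1.64 and 2.30 with the 4 hemoglobin genes at 0, and the 6 stromal and epithelial markers to between 1.85 and 4.06. Differences are log2 ratios of FPKM + 1, and a gene is called higher or lower when this ratio passes 2-fold. Counts are read against all genes and against the 7897 genes that reached 5 FPKM in any library, named expressed genes from here on.

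Because the tail bears on what is captured, the 3′ ends of the genes were read in the GENCODE M21 transcripts (GRCm38). The last 100 bases of the 3′ UTR of 1 principal transcript per gene were searched on the transcript strand for the cytoplasmic polyadenylation element, written TTTTAT or TTTTAAT, and for the polyadenylation signal AATAAA or ATTAAA. The element was found in 2 of the 10 genes, *H1foo* and *H2afx*, against 20.5% of the 7863 expressed genes with such a 3′ end and 16.4% of all 21359. Both are shown with the element in capitals and 9 bases on each side, since no other member holds it, at chr6:115950160-115950183 (plus strand) and chr9:44336030-44336053 (plus strand).
H1foo element: ttctgaagcTTTTATtgtctaata
H2afx element: atgggctaaTTTTATtaaaggatc
In *H1foo* the element began 45 bases before the signal. In *H2afx* it began 4 bases before the signal, so that both share bases.

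The signal AATAAA stood in the window of 7 of the 10 genes, against 65.8% of the 7863 expressed genes, while *H2afz* and *H2afx* held only ATTAAA, as did 15.1% of those genes. *H2afy* held neither. The signals of *H1foo* and *Npm2*, the most abundant members, and of *H2afz* and *H2afx*, which hold the other form, are shown in capitals, from chr6:115950205-115950228 (plus strand), chr14:70647307-70647330 (minus strand), chr3:137866888-137866911 (plus strand) and chr9:44336034-44336057 (plus strand).
H1foo signal: taatttatcAATAAAgactttgta
Npm2 signal: tagggccacAATAAAatttgcatg
H2afz signal: tgcttactaATTAAAcagtgcatc
H2afx signal: gctaattttATTAAAggatcgttt
These matches describe annotated ends, and which ends the oocytes used was not measured.

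*H1foo* (chromosome 6, 115944938 to 115950236) was among the 3 most abundant mRNAs of every library. It stood at 4724 FPKM in GV oocytes, against 7977 in MII, 7352 with TubA-10 and 8806 with TubA-20. Its rank among all genes was 3 in GV, 2 in MII, 3 with TubA-10 and 1 with TubA-20, and its part of the summed FPKM was 0.758% in GV and between 1.24% and 1.40% after culture. All cultured libraries were thus above GV, by log2 ratios of 0.76 for MII, 0.64 with TubA-10 and 0.90 with TubA-20, none of them past 2-fold. Of the expressed genes, 80.0%, 84.7% and 74.9% had a lower ratio in these comparisons. TubA-20 was above MII by 0.14, which turned to −0.02 with the libraries scaled to equal *Gapdh*, and TubA-10 was at −0.12 against MII.

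The other linker histone genes were far less abundant. *H1f0* (chromosome 15, 79028450 to 79030504), the linker histone of cells that have stopped dividing, had 23.7 FPKM in GV oocytes, 22.5 in MII, 18.6 under TubA-10 and 26.2 under TubA-20. Its ratios to GV were −0.07 for MII, −0.33 with TubA-10 and 0.14 with TubA-20, and the first and the last changed sign with the scaling of the libraries. *H1fx* (chromosome 6, 87980421 to 87981637), a divergent somatic linker histone, had 10.2 FPKM in GV oocytes, 3.01 in MII, 1.87 under TubA-10 and 1.88 under TubA-20. GV was the high library, and the cultured ones were more than 2-fold lower, with log2 ratios of −1.48, −1.96 and −1.96. *H1foo* alone supplied 99.3% of the summed FPKM of these 3 genes in GV and 99.7% in each cultured library. The ratio of *H1foo* to *H1f0*, which does not depend on how libraries are scaled, was 199 before culture, 354 in MII, 395 under TubA-10 and 336 under TubA-20.

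**Figure D1:**
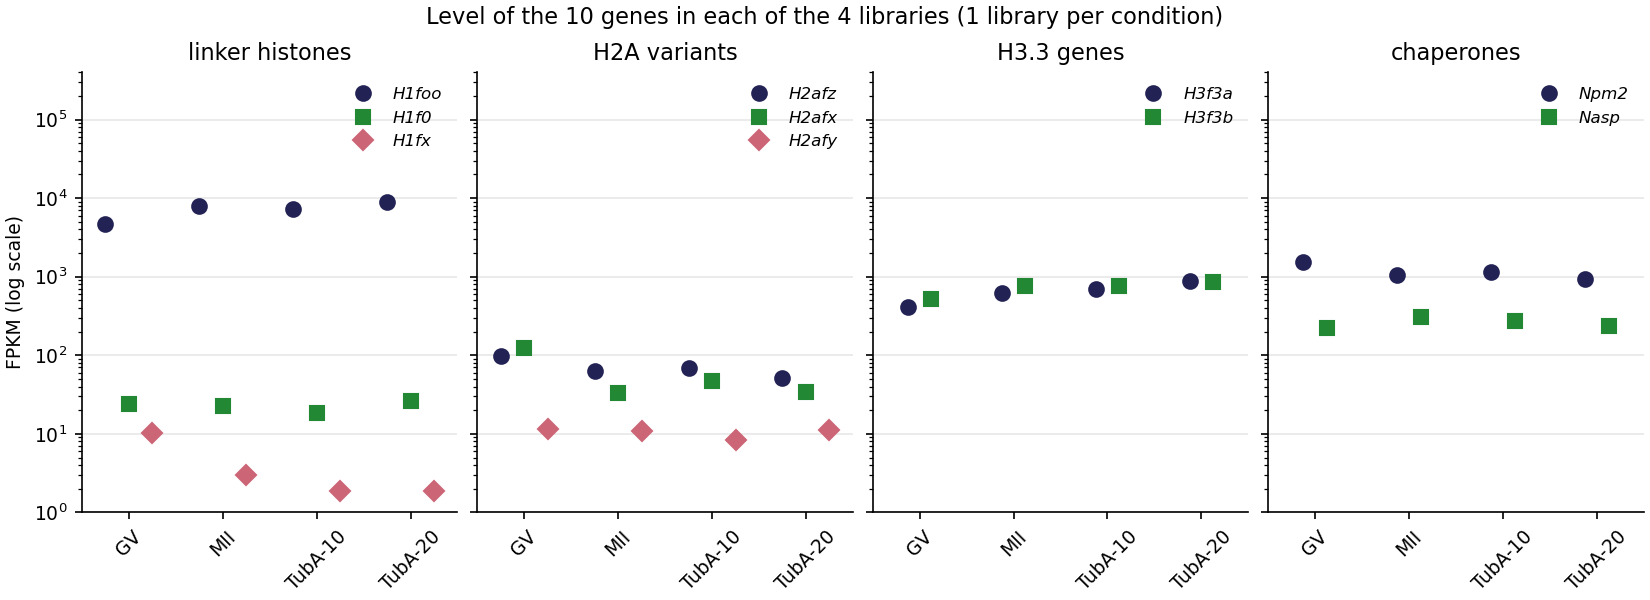
FPKM of the 10 genes (vertical axis, log scale) in the GV, MII, TubA-10 and TubA-20 libraries (horizontal axis), 1 point per library and gene (set side by side), in panels for linker histones, H2A variants, H3.3 genes and chaperones. *H1foo* lies between 4724 and 8806 FPKM, above every other member, and the H2A variants lie between 8.34 and 123.

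Among the H2A variants, GV had the highest deposited value of each gene. *H2afx* (chromosome 9, 44334694 to 44336077) encodes H2A.X, which is phosphorylated around DNA breaks. It stood at 123 FPKM before culture and at 33.3 in MII, 46.9 under TubA-10 and 34.2 under TubA-20. The cultured libraries were thus lower by 3.68-fold, 2.61-fold and 3.58-fold in FPKM, or by log2 ratios of −1.85, −1.37 and −1.81. *H2afz* (chromosome 3, 137864487 to 137866922) encodes H2A.Z, a variant found at promoters and in heterochromatin. It stood at 98.8 FPKM before culture, 62.4 in MII, 68.5 under TubA-10 and 51.9 under TubA-20. Its ratios to GV were −0.66, −0.52 and −0.92, of which the last passed 2-fold (−1.14) with the median ratio of the libraries set to 0. *H2afy* (chromosome 13, 56073619 to 56136361), the gene of macroH2A1, a variant known from silent chromatin, had 11.5 FPKM before culture, 10.9 in MII, 8.34 under TubA-10 and 11.2 under TubA-20. TubA-10 was the low library, at −0.42 against GV, while the −0.07 of MII and the −0.03 of TubA-20 changed sign with the scaling. Of the summed FPKM of these 3 genes, *H2afx* made up 52.6% before culture and 31.3%, 37.9% and 35.2% in MII, TubA-10 and TubA-20.

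H3.3 is the H3 variant that is put into chromatin without replication, and *H3f3a* and *H3f3b* encode the same protein. *H3f3a* (chromosome 1, 180800832 to 180813943) had 406 FPKM before culture, 627 in MII, 688 under TubA-10 and 876 under TubA-20. *H3f3b* (chromosome 11, 116021912 to 116027962) had 515 FPKM before culture, 767 in MII, 753 under TubA-10 and 863 under TubA-20. Both were lowest in GV and highest under TubA-20. The log2 ratios of *H3f3a* to GV were 0.62, 0.76 and 1.11 for MII, TubA-10 and TubA-20. Those of *H3f3b* were 0.57, 0.55 and 0.74. The 1.11 of *H3f3a* was the only value of a member more than 2-fold above GV, and it was 0.88 with the median ratio set to 0, while its 0.76 with TubA-10 passed 2-fold (1.03) with equal *Gapdh*. *H3f3b* was 1.27 times *H3f3a* in GV, 1.22 times in MII, 1.09 times under TubA-10 and 0.985 times under TubA-20.

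How the authors' counting split reads between near copies bears on both *H3f3a* and *H2afz*, whose levels are therefore uncertain. For *H3f3a*, 17 other annotated genes, 15 of them pseudogenes, share at least 150 bases of its transcript at 95% identity or more, and only *Smpd4* (at most 4.73 FPKM) among them is in the table. *H2afz* has 4 such genes, among them the protein-coding *Tmcc1*, at 6.28 FPKM before culture and 8.81 to 11.9 after it. The remaining members have 0 to 2, none of them in the table, and *H1foo*, *H2afx*, *Npm2* and *Nasp* have 0.

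The chaperones lay on opposite sides of GV. *Npm2* (chromosome 14, 70647302 to 70659244) is the oocyte nucleoplasmin, which binds histones and helps to remodel sperm chromatin after fertilization. It was the second most abundant member, with 1522 FPKM before culture, 1051 in MII, 1144 under TubA-10 and 937 under TubA-20. All cultured libraries were below GV, by log2 ratios of −0.53, −0.41 and −0.70, none past 2-fold. The gene *Xpo7* overlaps it on the same strand and had at most 2.95 FPKM. *Nasp* (chromosome 4, 116601052 to 116627941), which keeps a soluble reserve of H3 and H4 and can bind linker histones, had 222 FPKM before culture, 308 in MII, 270 under TubA-10 and 235 under TubA-20. MII was the highest, at 0.47 above GV, against 0.28 for TubA-10 and 0.08 for TubA-20, the last turning to −0.14 with the median ratio set to 0. Of the summed FPKM of both chaperones, *Npm2* supplied 87.3% before culture, 77.4% in MII, 80.9% under TubA-10 and 79.9% under TubA-20. The ratio of *H1foo* to *Npm2* was 3.10 before culture, 7.59 in MII, 6.43 under TubA-10 and 9.40 under TubA-20.

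Counted together, MII against GV had 0 members more than 2-fold higher and 2 lower (*H1fx* and *H2afx*), where 3.05% of all genes were called higher and 8.34% lower, or 8.1% and 20.2% of the expressed genes. TubA-10 against GV had 0 higher and the same 2 genes lower, beside 0.742% and 5.6% of all genes, or 1.79% and 13.7% of the expressed ones. TubA-20 against GV had 1 higher (*H3f3a*) and the same 2 lower, beside 7.61% and 11.7% of all genes, or 19.9% and 26.4% of the expressed ones. Every member reached 5 FPKM in some library, and next to the expressed genes these counts are near the background. The median log2 ratio of the 10 members was −0.07 for MII, −0.37 with TubA-10 and 0.03 with TubA-20, and the expressed genes had medians of 0.13, 0.17 and 0.22. These comparisons share the GV library, so 1 value of each gene enters all of them.

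**Figure D2:**
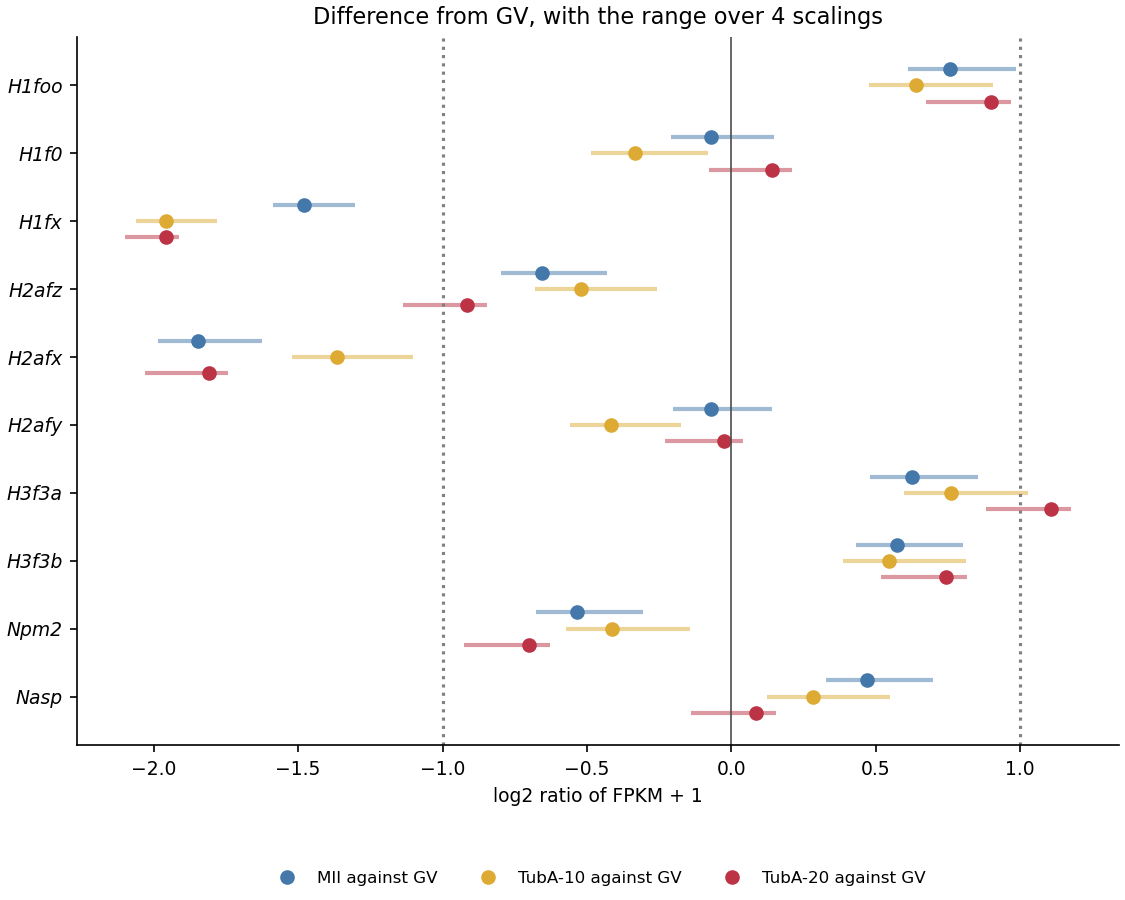
Log2 ratio of FPKM + 1 against GV (horizontal axis) for each of the 10 genes (vertical axis) in MII, TubA-10 and TubA-20. Points are the deposited values, bars span the lowest and highest value over 4 scalings of the libraries, and dotted lines mark 2-fold. *H1fx* and *H2afx* lie below −1 in all 3 comparisons, *H1foo*, *H3f3a* and *H3f3b* lie above 0, and the bars of *H1f0* and *H2afy* reach across 0 in MII and TubA-20.

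The comparison with MII sets oocytes cultured with the drug beside those cultured for as long without it. Tubastatin A is known to hold mouse oocytes before MII, and only the MII group was chosen by its polar body, so drug and meiotic stage cannot be told apart. In TubA-10 against MII, 0 members were past 2-fold in either direction, beside 0.515% of all genes higher and 0.128% lower (1.22% and 0.241% of the expressed genes). In TubA-20 against MII there were also 0, beside 0.328% higher and 2.44% lower (0.545% and 6.37%). The members' ratios ran from −0.48 to 0.48 in both comparisons, and *H1fx* was the lowest in both. *H2afx* was the highest in TubA-10, at 0.48, and under TubA-20 it was at 0.04, which turned negative under 3 of 4 scalings. *H3f3a* was the highest in TubA-20, at 0.48 (0.32 to 0.45 under the scalings), against 0.13 in TubA-10. *Nasp* was below MII in both, at −0.19 in TubA-10 and −0.38 in TubA-20. *H2afz* and *Npm2* were above MII in TubA-10 (0.13 and 0.12) and below it in TubA-20 (−0.26 and −0.17), with the same signs under all 4 scalings. *H1f0*, which was at −0.26 in TubA-10 and 0.21 in TubA-20, was the opposite.

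**Figure D3:**
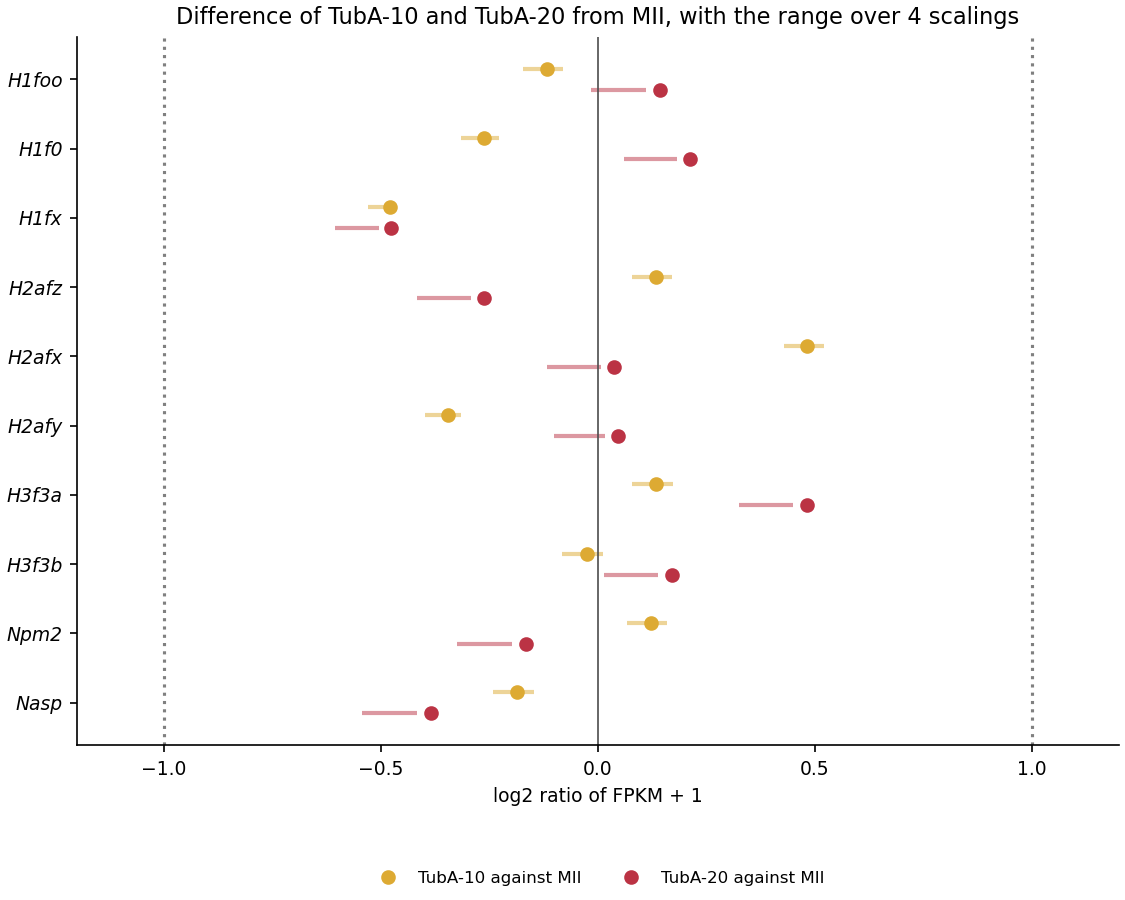
Log2 ratio of FPKM + 1 against MII (horizontal axis) for each of the 10 genes (vertical axis) in TubA-10 and TubA-20. Points are the deposited values, bars span 4 scalings of the libraries, all of which lower TubA-20 relative to MII, and dotted lines mark 2-fold. Every point lies between −0.48 and 0.48.

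Between the doses, 0 members of TubA-20 against TubA-10 were past 2-fold, beside 0.66% of all genes higher and 5.52% lower (1.37% and 14.4% of the expressed genes). *H1f0* (0.47), *H2afy* (0.39), *H3f3a* (0.35), *H1foo* (0.26) and *H3f3b* (0.20) were above their TubA-10 values, while *H2afx* (−0.44), *H2afz* (−0.39), *Npm2* (−0.29) and *Nasp* (−0.20) were below them, with these signs under all 4 scalings. *H1fx* had nearly equal deposited values (1.87 and 1.88 FPKM).

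By Euclidean distance over the 3 log2 ratios to GV, the expressed genes nearest to *H1foo*, of 7896 compared, were *Nfe2l2*, *Oat*, *Matr3*, *Ppp3r1* and *Cip2a*, at distances of 0.04 to 0.06. *Matr3* was the most abundant of them, at 175 FPKM before culture, 300 in MII, 273 under TubA-10 and 317 under TubA-20.

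Further genes of the same functions were described as 4 lists. The list of other linker histones held 8 genes, 4 of them under 1 FPKM in every library. These are replication-dependent histones or forms of the male germ line, and the mRNAs of the former mostly lack a tail. *Hist1h1a* had the highest GV level, with 29.5 FPKM before culture, 71.5 in MII, 42.3 under TubA-10 and 49.3 under TubA-20, and its log2 ratio of 1.25 for MII was the only call against GV in the list with a pseudocount of 1. At that setting 3.05% of all genes were called higher and 8.34% lower for MII, and 7.61% and 11.7% for TubA-20, and all genes are the background here because only *Hist1h1a* reached 5 FPKM. With a pseudocount of 0.1 or 0.01, 2 genes of the list were past 2-fold for MII and 4 (2 higher and 2 lower) for TubA-20, beside 21% to 29.6% of all genes for MII and 31.3% to 39.1% for TubA-20 at these pseudocounts. *Hist1h1e* had 2.05 FPKM before culture and 4.80 under TubA-20, and *Hist1h1d* had 2.04 and 0.635. The highest of these levels was thus far below that of *H1foo*.

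Of the other core histone variants, 10 of 11 genes were in the table, and 7 of them reached 1 FPKM somewhere. Past 2-fold, 0 were higher and 3 lower than GV in MII and under TubA-20, and 0 and 2 under TubA-10. Only 4 of the 10 genes reached 5 FPKM, so all genes are again the background. Of all genes, 3.05% were higher and 8.34% lower in MII, 7.61% and 11.7% under TubA-20, and 0.742% and 5.6% under TubA-10. Genes that never reached 1 FPKM lower these shares. Of the genes at 1 FPKM or more in some library, 22.9% were past 2-fold in either direction in MII. The same share was 38.9% under TubA-20 and 12.8% under TubA-10. One of the MII calls, *Hist3h2a*, rests on low values (1.47 FPKM before culture and 0.205 in MII) and was named after its values were seen. The TubA-20 count was 6 with a pseudocount of 0.1 or 0.01 and 2 to 4 under the scalings, all of them lower, while 19.1% to 23.8% of all genes were lower at these pseudocounts and 11.3% to 13.3% under the scalings. The list medians were −0.58 for MII, −0.49 with TubA-10 and −0.75 with TubA-20. *H2afv*, another gene for H2A.Z, had 209 FPKM before culture, 29.9 in MII, 39.3 under TubA-10 and 32.7 under TubA-20. Its ratio to *H2afz* was 2.12 before culture and 0.479, 0.573 and 0.629 in the cultured libraries. *H2afj*, another H2A variant, had 128 FPKM before culture, 32.7 in MII, 38.3 under TubA-10 and 20.6 under TubA-20. *Cenpa*, the H3 variant of centromeres, had 88.8 FPKM before culture, 97.0 in MII, 82.6 under TubA-10 and 127 under TubA-20, and its ratio of 0.51 for TubA-20 was the highest of the list.

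The list of other H3-H4 chaperones held 24 genes, all at 1 FPKM or more in some library. Of these, 6 were more than 2-fold higher and 5 lower than GV under TubA-20, 2 and 3 in MII, and 0 and 3 under TubA-10, with medians of 0.43, 0.44 and 0.25. All but *Hira* and *Cdan1* reached 5 FPKM. The expressed genes called higher and lower were 19.9% and 26.4%, 8.1% and 20.2%, and 1.79% and 13.7% in these comparisons, and the TubA-20 counts are near them. The number of higher genes depended on the scaling: with equal *Gapdh*, 7 were higher and 3 lower in MII (expressed genes: 18.5% and 16.3%), and with the median ratio set to 0, 2 were higher and 5 lower under TubA-20 (10.3% and 29.9%). *Rbbp7*, a histone-binding subunit of several complexes, had 847 FPKM before culture, 1339 in MII, 1147 under TubA-10 and 1952 under TubA-20. *Atrx*, which works with Daxx in placing H3.3, had 140 FPKM before culture, 336 in MII, 232 under TubA-10 and 303 under TubA-20. *Asf1a*, which hands H3 and H4 on to other chaperones, had 116 FPKM before culture, 126 in MII, 88.4 under TubA-10 and 108 under TubA-20. *Ubn2*, of the HIRA group that also places H3.3, had the highest ratio for TubA-20 (1.47). *Chaf1b*, of the replication-coupled CAF-1 complex, had the lowest (−2.80), with 26.7 FPKM before culture, 8.25 in MII and 10.4 under TubA-10.

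The list of other H2A-H2B chaperones and exchange factors held 15 genes. Of these, 4 were more than 2-fold higher and 1 lower than GV under TubA-20, and 0 and 1 in MII and under TubA-10, with medians of 0.83, 0.55 and 0.43. The shares of expressed genes are those of the H3-H4 list, also under the scalings. With equal *Gapdh*, 6 were higher and 1 lower in MII, and with the median ratio set to 0, 2 were higher and 1 lower under TubA-20. *Npm1*, the nucleolar relative of *Npm2*, had 1204 FPKM before culture, 1560 in MII, 1711 under TubA-10 and 2179 under TubA-20. It was 0.791 times as abundant as *Npm2* before culture and 1.48 to 2.33 times in the cultured libraries. *Ncl*, which encodes nucleolin, had 176 FPKM before culture, 317 in MII, 248 under TubA-10 and 420 under TubA-20, and *Nap1l1*, a nucleosome assembly protein, had 114, 165, 126 and 201 in this order. *Npm3*, of the *Npm2* family, had the highest ratio for TubA-20 (1.39, from 5.17 and 15.2 FPKM). *Znhit1*, of a complex that exchanges H2A.Z, had the lowest (−2.34, from 76.2 and 14.3 FPKM).

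**Figure D4:**
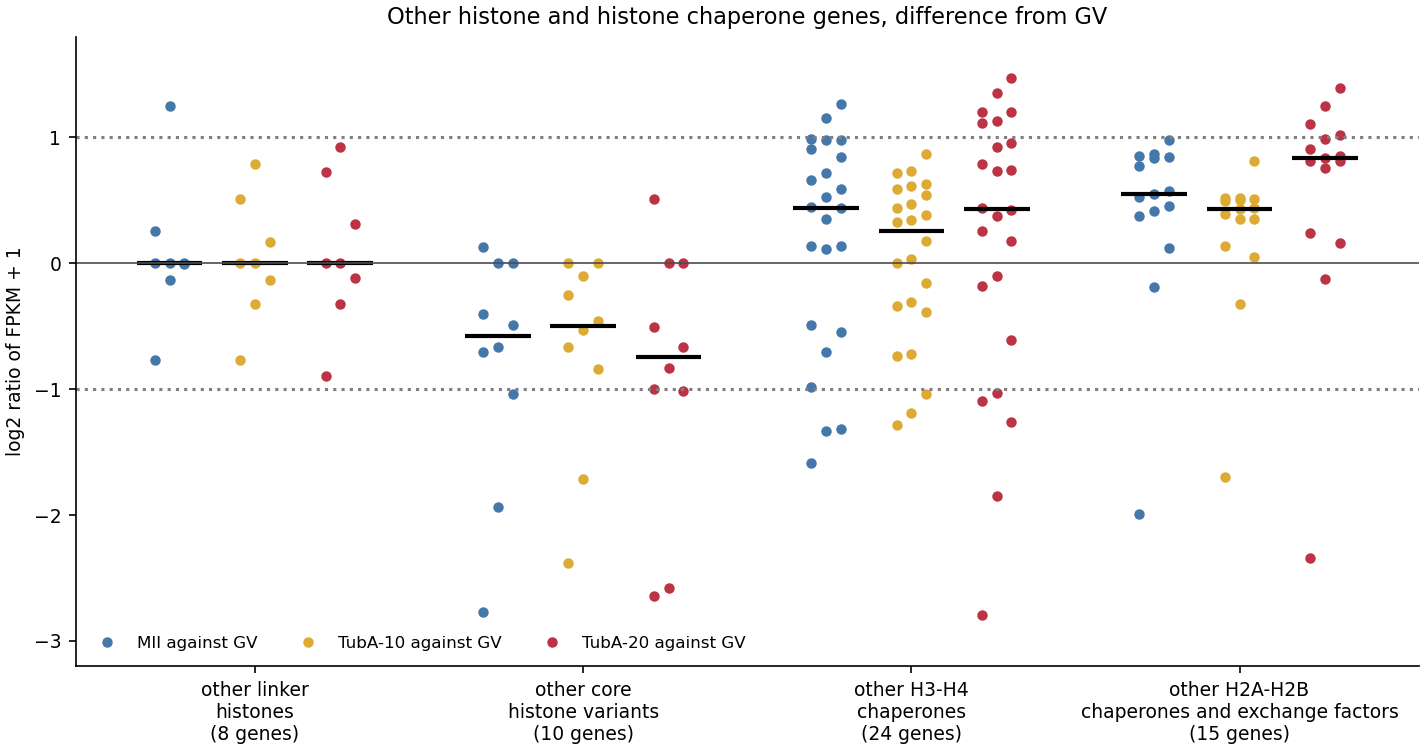
Log2 ratio of FPKM + 1 against GV (vertical axis) for the genes of the 4 lists (horizontal axis), 1 point per gene, in MII, TubA-10 and TubA-20. Black bars are list medians and dotted lines mark 2-fold. The median of the other core histone variants lies below 0 in each group (−0.58, −0.49 and −0.75), and that of the H2A-H2B chaperones above 0 (0.55, 0.43 and 0.83).

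The polyadenylation element was also set beside the ratios of the expressed genes. For TubA-20 against GV the median log2 ratio was 0.72 over 1608 genes with the element and 0.01 over 6255 genes without it, for MII it was 0.50 and −0.01, and for TubA-10 it was 0.36 and 0.09. The members with the element lay on both sides of these medians, *H1foo* at 0.90 and *H2afx* at −1.81 for TubA-20. The quartiles for TubA-20 overlapped, at −0.05 and 1.08 with the element and −1.31 and 0.83 without it. Genes are not replicates, and these medians describe 1 library for each group. Whether the element itself bears on the ratios was not tested.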

How the data were processed

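The authors deposited FPKM values of 4 libraries in 1 table. Per the labels and the methods, reads were aligned with STAR 2.5.0 to mm10 and quantified with cufflinks as a first-strand library, and Cuffdiff 2.2.1 is also listed. The study speaks of normalized values but names no method of scaling between libraries beyond FPKM. Read counts were not used here. Of 21959 entries, 21794 were matched to a symbol by Ensembl identifier, 165 kept their identifier, and entries with 1 symbol were summed.

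Ratios were taken as log2 of FPKM + 1, with no filter on low values. Columns were mapped by sample description. The members and lists were chosen with earlier results of these data known. All 10 members were described, and from each list the 3 genes highest in GV, plus 1 gene with the highest and 1 with the lowest ratio of TubA-20 to GV, with the 5 genes nearest to *H1foo*. Coordinates come from GENCODE M21 (GRCm38). Near copies were searched with BLAST 2.17.0. Alternatives were pseudocounts of 0.1 and 0.01, folds of 1.5 and 3, scaling to the median ratio, the FPKM sum, the upper quartile or *Gapdh*, and the highest entry per symbol. Scripts were tested on simulated data in Python 3.11.15, numpy 2.4.6 and pandas 2.3.3.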

Additional observations from a re-analysis of the deposited data

How the results depend on the processing

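No paired analysis was possible because each group is 1 library, and for the same reason no replicate could be left out. Of 420 member ratios under other pseudocounts, scalings and entry choices, 398 kept their sign and their side of 2-fold, 22 did not, and 0 called ratios changed sign. All 22 were under the scalings. The pseudocounts moved none, and the highest entry left the ratio of every member unchanged, so these settings add to the 398 without testing the scaling. A 1.5-fold threshold counted 5 members for MII, 4 with TubA-10 and 7 with TubA-20 relative to GV in place of 2, 2 and 3, beside 59.2%, 41.3% and 72.2% of the expressed genes, and a 3-fold threshold 1, 1 and 2, beside 9.81%, 5.04% and 19.2%. A ratio without pseudocount, added after seeing the data, left TubA-20 at 3. Pseudocounts of 0.1 and 0.01 each counted 4 other linker histones in TubA-20 and 2 in MII, in place of 0 and 1. They counted 6 other core variants in TubA-20 in place of 3. Of all genes, 31.3% and 39.1% were past 2-fold in TubA-20 at these pseudocounts, and 21% and 29.6% in MII. The chaperones past 2-fold in MII were 8 of the H3-H4 and 2 of the H2A-H2B list, in place of 5 and 1. Of the expressed genes, 32.4% and 32.8% were past 2-fold in MII at these pseudocounts. With the median ratio set to 0, 7 H3-H4 and 3 H2A-H2B chaperones were past 2-fold in TubA-20 in place of 11 and 5. The share of expressed genes past 2-fold was then 40.2% in place of 46.3%. In MII, equal FPKM sums gave 9 and 3, equal upper quartiles 8 and 2, and equal *Gapdh* 10 and 7. Of the expressed genes, 31.6%, 29.8% and 34.8% were past 2-fold in MII at these scalings, in place of 28.3%. Setting the median ratio to 0 lowers each ratio to GV by 0.14 for MII, 0.16 with TubA-10 and 0.23 with TubA-20 at all but low levels. Below about 5 FPKM, where *H1fx* lies in the cultured libraries, the pseudocount understates a fold.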

Other observations

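H3.3 is placed by the HIRA group and by Daxx with Atrx. These genes were picked out after their values were seen, so a direction shared with the H3.3 genes is no test of a link. They had more FPKM under TubA-20 than in GV, as had 55.0% of the expressed genes and 16 of the 24 genes of their list. They were above GV in the drug-free MII library too. *Hira* had 1.13 FPKM before culture, 1.88 in MII, 1.41 under TubA-10 and 1.86 under TubA-20. *Ubn1* had 18.6, 34.1, 28.5 and 37.0 FPKM in this order, *Cabin1* had 12.9, 26.5, 21.9 and 34.7, and *Daxx* had 25.7, 42.9, 35.9 and 57.4. The log2 ratios of TubA-20 to GV were 0.42, 0.95, 1.36 and 1.13. That of *Daxx* was 0.91 at the lowest of the 4 scalings. Of the expressed genes, 19.9% were called higher in that comparison, so such values are common in it. *Asf1a*, which hands H3.3 and H4 to the HIRA group, was at −0.10 in the same comparison, negative under all 4 scalings.

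The subunits of CAF-1, which places H3 and H4 behind the replication fork, differed from each other. *Chaf1a* had 105 FPKM before culture, 116 in MII, 93.9 under TubA-10 and 92.2 under TubA-20. Its log2 ratio to GV was −0.18 for TubA-20, against the −2.80 of *Chaf1b*. The subunit *Rbbp4* had 16.5 FPKM before culture, 11.4 in MII, 12.8 under TubA-10 and 22.7 under TubA-20, a ratio of 0.44. Of the genes that bring Cenpa to centromeres, *Hjurp* had 27.4 FPKM before culture and 36.0 under TubA-20, *Mis18a* had 78.6 and 132, and *Oip5* had 8.12 and 2.82. *Hist1h2aa*, an H2A form of germ cells, had 36.9 FPKM before culture, 22.2 in MII, 20.3 under TubA-10 and 17.8 under TubA-20. These genes too were picked out after their values were seen.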
